A study of Sus scrofa with 12 samples.

Results

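Class I genes of the pig major histocompatibility complex, classical and nonclassical, and their partners were followed in the longissimus dorsi, the loin muscle, of 12 Iberian pigs. The 10 genes are SLA-1, SLA-2, SLA-3, SLA-6, SLA-7, SLA-8, B2M, TAP1, TAP2 and TAPBP, where SLA stands for swine leukocyte antigen. They were taken by name from 28224 genes annotated on the chromosomes of Sscrofa11.1, of which 15034 had a value in at least 1 pig and 12416 were abundant enough to be tested. All 10 were among the tested genes. The members were chosen by the measured difference in FPKM between the fat and the lean pigs in these same libraries, SLA-1 leading, so that difference is given for each gene as a description.

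The pigs were purebred, castrated Iberian males of a closed commercial population, fattened outdoors on acorns and grass, and siblings were left out. The 6 H pigs had high and the 6 L pigs low estimated breeding values (EBV) for intramuscular fat (IMF), and no other treatment separated them. The labels gave an IMF of 10.62 to 13.8% and an EBV of 2.78 to 3.48 in the H pigs, against an IMF of 1.7 to 2.28% and an EBV of -1.46 to -1.31 in the L pigs. The mean IMF that the study's text gives for the L group lies above all the labelled values of that group, and the labels were kept here. The muscle was collected at slaughter, in several batches, and the batch of each pig is not known from the sources used here. Each pig gave 1 paired-end library with reads of 76 bases, and each library was assembled alone. The spread between pigs below therefore also holds differences between libraries and assemblies, which cannot be told apart from those between animals. In whole muscle, fewer cells of a type and less RNA per cell cannot be told apart.

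A class I molecule is a heavy chain that holds a short peptide on the cell surface, where cytotoxic T lymphocytes and natural killer cells read it. The heavy chain pairs with beta-2 microglobulin, made by B2M. The peptides come from proteins degraded in the cytosol, are pumped into the endoplasmic reticulum by the transporter that TAP1 and TAP2 form, and are loaded with the help of tapasin, made by TAPBP. SLA-1, SLA-2 and SLA-3 are the classical and highly polymorphic heavy chain genes of the pig, whereas SLA-6, SLA-7 and SLA-8 are the less variable, nonclassical ones. In most tissues nearly every nucleated cell carries class I molecules, and skeletal muscle fibres are known for carrying few of them.

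The class I heavy chain genes lie close together and resemble each other, so their reads are hard to keep apart. The annotation holds 11 class I loci on chromosome 7. Along the cluster stand SLA-1 (gene ID 100037293, chr7:22824137-22920154, plus strand), SLA-5, LOC100515902 (chr7:22868063-22871503), LOC100513601 (chr7:22888616-22920154), SLA-3 (ID 100037288, chr7:22938211-22942735), SLA-2 (ID 100135031, chr7:22916747-22959405) and the pseudogenes SLA-4 and SLA-11. As annotated, SLA-1 reaches over SLA-5 and LOC100515902 and shares its last annotated exon with LOC100513601. These names are those of RefSeq, and how they map onto the Ensembl class I genes that guided the authors' assembly could not be settled, so a level of SLA-1 or of its neighbours is one of the RefSeq locus. A second group holds SLA-8 (ID 100135036, chr7:23622352-23625818, plus strand), SLA-7 (ID 396650, chr7:23634731-23638722, minus strand) and SLA-6 (ID 100135037, chr7:23645335-23649342, minus strand).

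The second exon encodes the first of the 2 domains that form the peptide groove. It is shown here from the reference for SLA-1 and the 3 loci whose transcripts were joined with each other in these libraries. Each is 270 bases on the plus strand of Sscrofa11.1 (RefSeq), with capitals where the base differs from SLA-1: 12 for SLA-2 and 16 each for SLA-3 and LOC100513601.
SLA-1 exon 2, chr7:22824834-22825103: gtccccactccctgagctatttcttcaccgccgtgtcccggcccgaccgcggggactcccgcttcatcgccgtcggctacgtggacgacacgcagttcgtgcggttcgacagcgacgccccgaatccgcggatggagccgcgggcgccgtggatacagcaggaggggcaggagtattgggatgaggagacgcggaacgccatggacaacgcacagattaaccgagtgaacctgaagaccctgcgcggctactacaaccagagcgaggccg
SLA-2 exon 2, chr7:22956420-22956689: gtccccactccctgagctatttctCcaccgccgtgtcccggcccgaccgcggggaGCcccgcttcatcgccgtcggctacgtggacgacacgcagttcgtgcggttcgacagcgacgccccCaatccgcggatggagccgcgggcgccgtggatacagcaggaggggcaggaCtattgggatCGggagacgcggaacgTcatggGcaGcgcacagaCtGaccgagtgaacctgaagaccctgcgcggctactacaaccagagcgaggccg
SLA-3 exon 2, chr7:22938701-22938970: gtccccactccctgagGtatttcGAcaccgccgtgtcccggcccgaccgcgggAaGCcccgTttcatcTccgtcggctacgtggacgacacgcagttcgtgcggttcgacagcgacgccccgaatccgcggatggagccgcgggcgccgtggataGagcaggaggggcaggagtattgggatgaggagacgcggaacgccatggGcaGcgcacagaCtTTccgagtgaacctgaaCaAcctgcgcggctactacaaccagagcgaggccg
LOC100513601 exon 2, chr7:22889305-22889574: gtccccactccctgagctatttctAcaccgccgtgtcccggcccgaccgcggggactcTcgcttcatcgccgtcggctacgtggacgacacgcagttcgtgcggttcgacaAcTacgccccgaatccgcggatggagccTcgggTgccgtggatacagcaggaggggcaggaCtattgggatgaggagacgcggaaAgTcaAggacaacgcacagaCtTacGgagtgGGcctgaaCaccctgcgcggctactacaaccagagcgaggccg
Exon 4 encodes the domain that touches beta-2 microglobulin and the T cell coreceptor CD8, and it hardly differs between the loci. Over its 276 bases the exon of SLA-2 has 3 bases, in capitals, that differ from SLA-1.
SLA-1 exon 4, chr7:22826215-22826490: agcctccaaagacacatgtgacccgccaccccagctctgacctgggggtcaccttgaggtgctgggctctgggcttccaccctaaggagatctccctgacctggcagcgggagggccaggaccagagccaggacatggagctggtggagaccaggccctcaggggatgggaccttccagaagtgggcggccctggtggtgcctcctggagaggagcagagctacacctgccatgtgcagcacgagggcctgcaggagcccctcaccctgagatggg
SLA-2 exon 4, chr7:22957789-22958064: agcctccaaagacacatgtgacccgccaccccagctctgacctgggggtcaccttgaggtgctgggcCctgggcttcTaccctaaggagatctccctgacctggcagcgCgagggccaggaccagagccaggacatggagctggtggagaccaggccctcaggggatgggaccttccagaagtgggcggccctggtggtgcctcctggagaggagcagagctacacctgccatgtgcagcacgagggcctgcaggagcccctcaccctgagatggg

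In exon 2, SLA-1 was identical to SLA-2 at 95.6% of the bases, to SLA-3 and LOC100513601 at 94.1%, to LOC100515902 at 89.6% and to SLA-7 at 81.5%. In exon 4 the same comparison gave 98.9% for SLA-2 and LOC100513601, 98.2% for SLA-3 and LOC100515902, and 93.8% for SLA-7. Exon 4 was thus the more alike of the 2 exons in all 5 of these pairs.

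**Figure D1:**
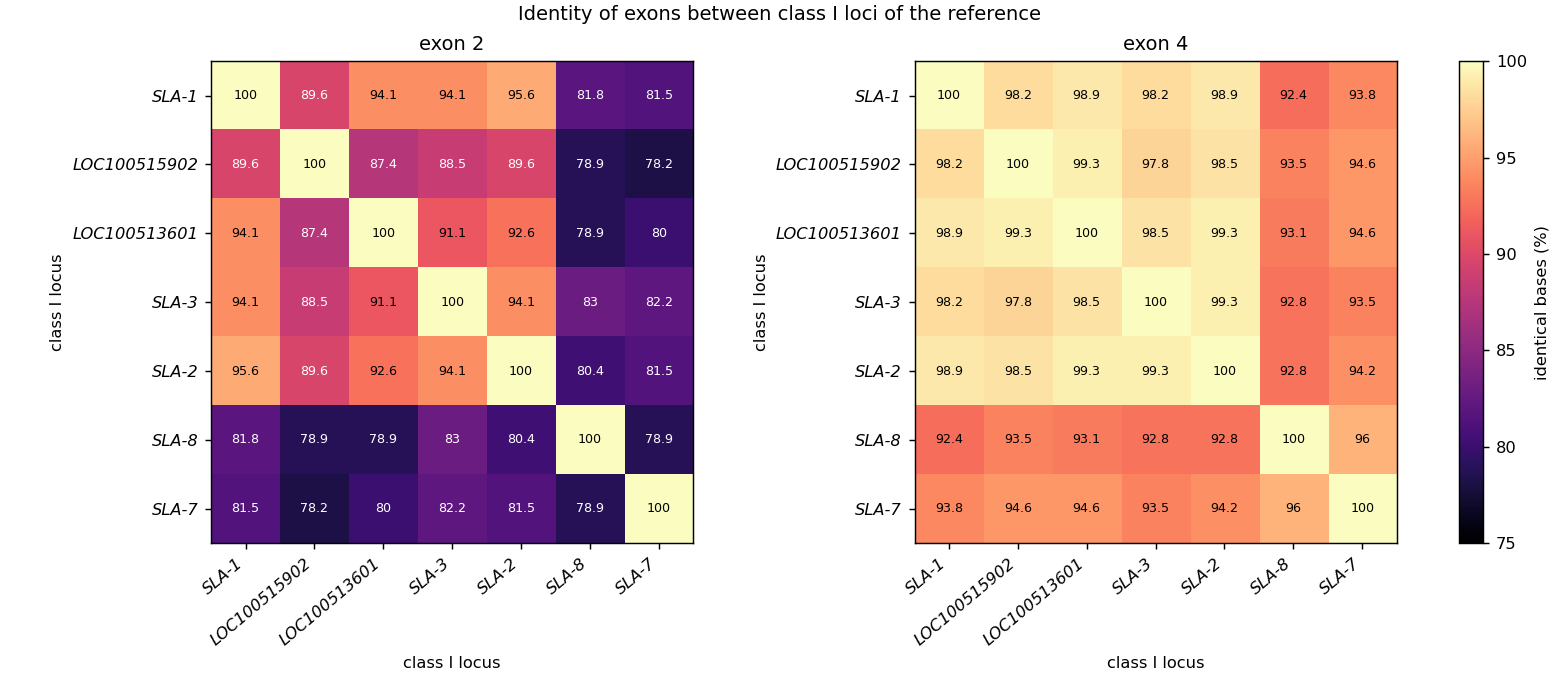
Percent of identical bases between 7 class I loci of the reference in exon 2 (left) and exon 4 (right), with both axes listing the loci and colour and number giving the identity. The 5 loci of the SLA-1 cluster share 97.8 to 99.3% of exon 4 but 87.4 to 95.6% of exon 2.

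What matters for counting is whether a stretch as long as a read occurs more than once. Of all 76-base stretches in the coding sequence of SLA-1, 24.04% occurred exactly in the annotated transcripts of another class I locus. With at most 2 differences, 69.0% did. These transcripts include untranslated bases. The exact search covered all other annotated class I loci, pseudogenes included, and the search with differences only some of them. For SLA-2 these shares were 17.65 and 61.7%, for SLA-3 15.8 and 58.5%, for LOC100513601 23.4 and 63.2%, and for LOC100515902 15.1 and 37.6%. The nonclassical genes shared less, with 5.24 and 12.6% for SLA-8 and 0 and 5.80% for SLA-6. Over the whole assembly, 21.2% of the stretches inside the exons of SLA-1 (134 of 633) were found elsewhere, and none of the copies lay on an unplaced scaffold. The alleles that these pigs carry were not analysed here.

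Of the classical genes, SLA-2 was the one that the assembled transcripts described best. The deposited transcripts were built by Cufflinks separately in each library, and their abundance is in FPKM, the fragments per kilobase of transcript relative to all mapped fragments of the library, scaled here between libraries. A transcript with the intron between exons 3 and 4 of SLA-2 was present in 12 of 12 pigs, as were those with each of the 4 introns after it. The introns between exons 1 and 2 and exons 2 and 3 were found in 8 and 11 pigs. SLA-8 had 6 of its 7 introns in all 12 pigs. By contrast, SLA-1 had no transcript with its introns 1 to 2, 2 to 3, 4 to 5, 5 to 6 or 6 to 7 in any pig. SLA-3 had the intron between exons 1 and 2 in 1 pig (H1), the intron between exons 7 and 8 in 1 pig (H6), and no other. A transcript with the complete annotated chain of introns was present in 7 pigs for SLA-2 and in 11 for SLA-8, and in 0 for SLA-1, SLA-3, SLA-6 and SLA-7.

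**Figure D2:**
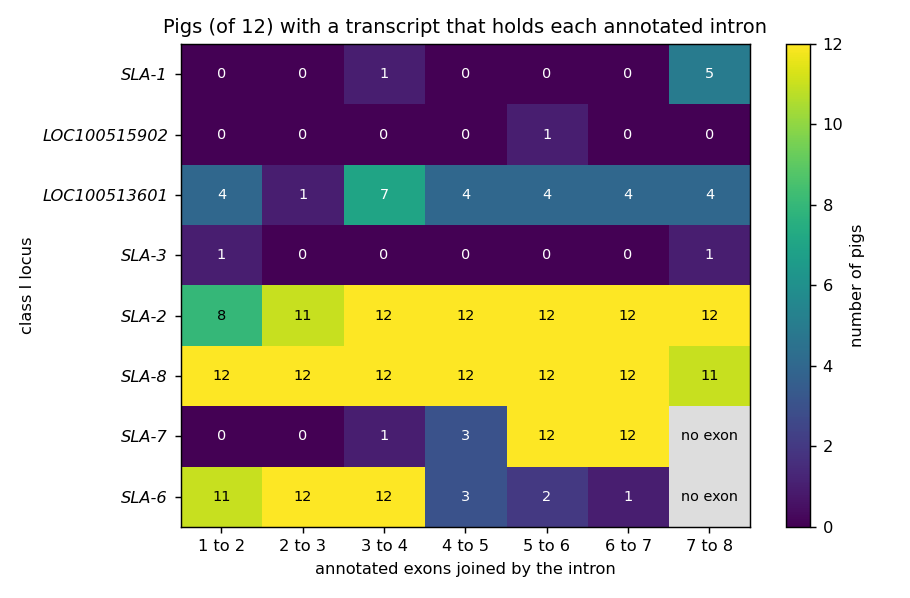
Number of pigs, of 12, with an assembled transcript that holds each annotated intron (columns, by the exons it joins) of 8 class I loci (rows). SLA-2 and SLA-8 are covered along the gene, SLA-1 and SLA-3 are nearly empty, and SLA-6 and SLA-7 are filled from opposite ends.

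SLA-1 had 8 assembled transcripts in 6 of the 12 pigs, the longest of 456 bases. In the H pigs its level was 0, 10.6, 83.0, 165, 215 and 414 FPKM, with a median of 124, and in the L pigs it was listed at 0 in 5 and at 133 FPKM in L5. It was above 0 in 5 of 6 H and 1 of 6 L pigs, and the values of the groups overlapped. The means were 148 ± 155 FPKM in the H and 22.1 ± 54.2 FPKM in the L pigs (SD, n = 6 each), a log2 ratio of 2.74. These values had been seen when the gene was chosen. Without transcripts under 200 bases the log2 ratio of SLA-1 was 2.38, and from the coverage of its annotated exons by any transcript it was 1.03.

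The level of SLA-1 rested on the end of the gene. In H1, H3, H4, H5 and L5 a transcript of 367 to 456 bases joined exons 7 and 8, of which 56 bases are coding and 302 to 330 bases lie in the 3' untranslated region. L5 held a second piece of 445 bases in that region, at 26.2 FPKM. In H2 a 426-base piece without an intron lay around exon 5, at 10.6 FPKM. In H5 a piece of 116 bases linked exons 3 and 4 at 198 FPKM, nearly as much as the 215 FPKM of the end piece of the same pig. Of the 76-base stretches in the pieces of at least 200 bases, 0 to 10.8% occurred exactly and 42.2 to 57.3% with at most 2 differences elsewhere in the class I region. Exons 2, 3 and 4 of SLA-1, which encode the peptide groove and the domain beside it, were touched by transcripts in 1, 1 and 2 pigs and were covered in full in 0. No transcript with the whole coding sequence of SLA-1 was thus assembled, and the values above are mainly those of short end pieces. Exon 2 of SLA-1 was used in L1 (91.2 FPKM), where it was spliced onto exon 3 of LOC100513601, and exon 1 of SLA-1 in L3 (57.8 FPKM), where it was spliced onto exon 2 of that locus. Short transcripts also linked exon 5 of SLA-1 with exon 5 of LOC100515902 in H2, H6 and L2, at 1563, 734 and 2974 FPKM, and SLA-1 was listed at 0 in H6 and L2. These were the most abundant joins between loci of the cluster, and their ends lie inside the annotated exons.

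SLA-2 was above 0 in all 12 pigs. Its level ran from 94.8 to 436 FPKM in the H pigs (median 277) and from 160 to 874 FPKM in the L pigs (median 268). L4 and L5 were highest, at 855 and 874 FPKM, and without transcripts under 200 bases they stood at 283 and 124 FPKM. The group means were 274 ± 115 FPKM in H and 435 ± 336 FPKM in L with all transcripts (log2 ratio -0.67), and 273 ± 115 and 215 ± 70.2 FPKM without the short ones (log2 ratio 0.35; SD, n = 6 each). The direction therefore turned with 2 short transcripts, 1 in each of these L pigs, and the groups overlapped either way.

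SLA-3 ran from 74.0 to 1687 FPKM in the H pigs (median 375) and from 0 to 1261 FPKM in the L pigs (median 330), where L3 and L4 were listed at 0. The means were 595 ± 611 and 434 ± 497 FPKM (SD, n = 6 each; log2 ratio 0.46). Of the 31 transcripts assigned to SLA-3, 20 were shorter than 200 bases, and these carried 93.8% of its FPKM. Without them SLA-3 stood at 38.3 ± 27.6 FPKM in H and 25.7 ± 41.8 FPKM in L.

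Close copies of these genes were also listed at high levels in some pigs. LOC100515902 was listed at 0 in 4 pigs and reached 5323 FPKM in L3, and 99.95% of its FPKM lay in transcripts shorter than 200 bases. LOC100513601 ran from 0 to 655 FPKM in H and from 0 to 183 FPKM in L. The highest value, of H6, was a transcript under 200 bases, and without such transcripts this pig was at 0 and the log2 ratio of H to L went from 1.00 to -0.47. Its intron between exons 3 and 4 was present in 7 pigs (H1, H4, H5, L1, L2, L3 and L5). SLA-5 was listed at 0 in all 12 pigs, SLA-4 was above 0 in 3, and the pseudogene SLA-11 ran from 7.93 to 46.7 FPKM.

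**Figure D3:**
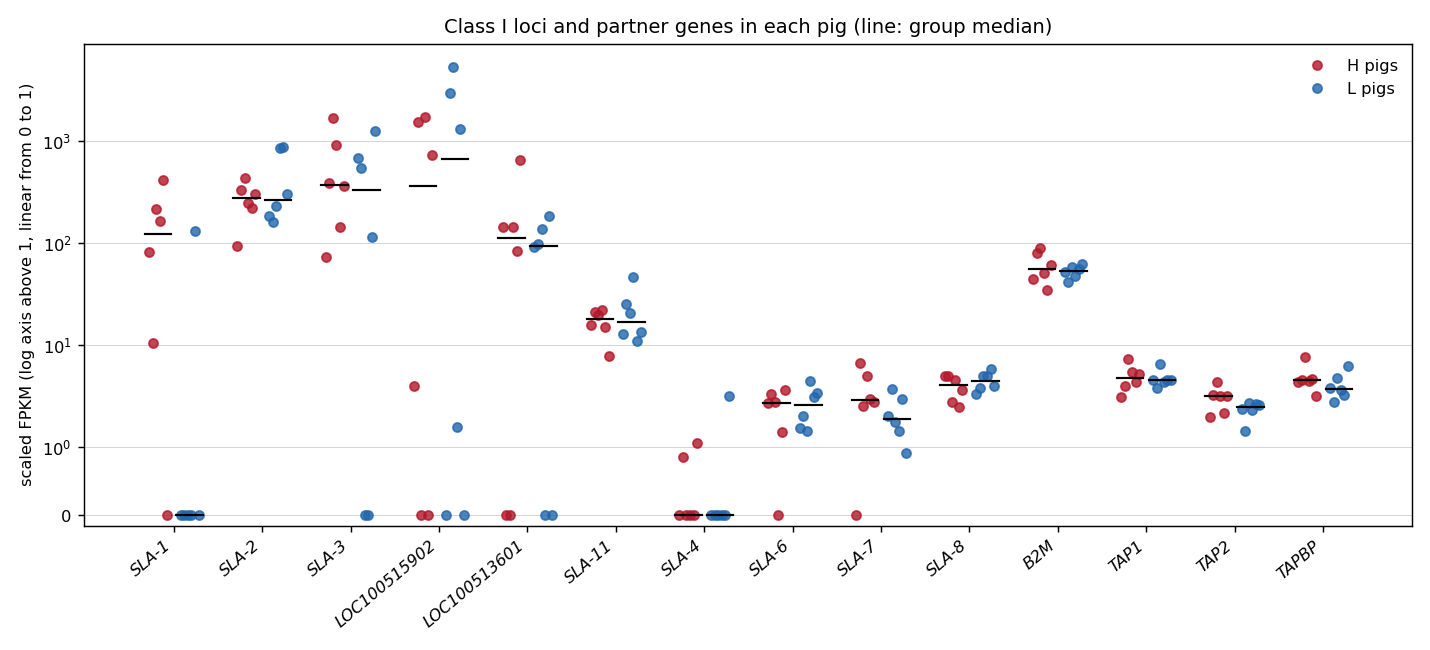
Scaled FPKM (vertical log axis, linear from 0 to 1) of 14 genes in each of the 6 H pigs (red) and 6 L pigs (blue), with a line at each group's median. SLA-1 and SLA-3 scatter from 0 to 1687 FPKM and LOC100515902 from 0 to 5323 FPKM between pigs, while SLA-8, B2M, TAP1, TAP2 and TAPBP keep within narrow bands and overlap between groups.

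The variation between pigs of a group was large for several of these loci. The SD within groups on the log2 scale was 3.46 for SLA-1, more than in 99.7% of the tested genes, 3.89 for SLA-3 and 6.14 for LOC100515902. It was 4.32 for LOC100513601, 0.94 for SLA-2, 0.90 for SLA-6 and 1.03 for SLA-7. SLA-8 (0.33), B2M (0.39), TAP1 (0.31), TAP2 (0.32) and TAPBP (0.37) were all close to the median of 0.39 over all tested genes. Exactly repeated stretches made up 24.04% of those of SLA-1, 23.4% for LOC100513601, 17.65% for SLA-2, 15.8% for SLA-3 and 15.1% for LOC100515902. For SLA-7, SLA-8 and SLA-6 the shares were 6.90, 5.24 and 0%. A relation between these shares and the SD was not tested.

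Assembled transcripts crossed from 1 class I locus to another in every library. In the SLA-1 to SLA-11 cluster 23 of 93 transcripts did so, and they carried between 0 and 85.4% of the FPKM in transcripts of at least 200 bases, with a median of 44.6% over pigs. Exon 2 of SLA-3 was spliced onto exon 3 of SLA-2 in 5 pigs (H1, H3, H5, H6 and L2). Exon 1 of LOC100513601 was spliced onto exon 2 of SLA-3 in 4 pigs and onto exon 2 of SLA-2 in 4 pigs. The last of these joins spans an intron of 67431 bases. The junction is shown with 30 bases of each exon (second exon in capitals, plus strand, Sscrofa11.1, RefSeq) beside that of SLA-2 itself.
LOC100513601 exon 1 (chr7:22888959-22888988) to SLA-2 exon 2 (chr7:22956420-22956449): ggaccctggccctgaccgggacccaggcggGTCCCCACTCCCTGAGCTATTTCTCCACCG
SLA-2 exon 1 (chr7:22956210-22956239) to SLA-2 exon 2: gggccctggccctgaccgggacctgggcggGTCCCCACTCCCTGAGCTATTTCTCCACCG
The joined version differs from the junction of SLA-2 in 3 of the 30 bases before the join. It differs from the junction of LOC100513601 itself in 1 of the 30 bases after it.

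Since the loci share sequence, sums over them were taken as well. Over all 11 loci the sum ran from 423 to 3215 FPKM in H (median 2206) and from 915 to 5724 FPKM in L (median 2121), with means of 1883 ± 1037 and 2612 ± 1883 FPKM (SD, n = 6 each; log2 ratio -0.47). Among all transcripts that touched exons of the cluster, those shorter than 200 bases made up 16.6 to 93.1% of the FPKM. That set is not the same as the transcripts assigned to the loci and summed here. Without transcripts under 200 bases the sum ran from 390 to 706 FPKM in H and from 294 to 520 FPKM in L. The means were then 516 ± 142 and 379 ± 86.9 FPKM (log2 ratio 0.44). The sign of the difference thus depended on the short transcripts, and the groups overlapped with and without them.

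**Figure D4:**
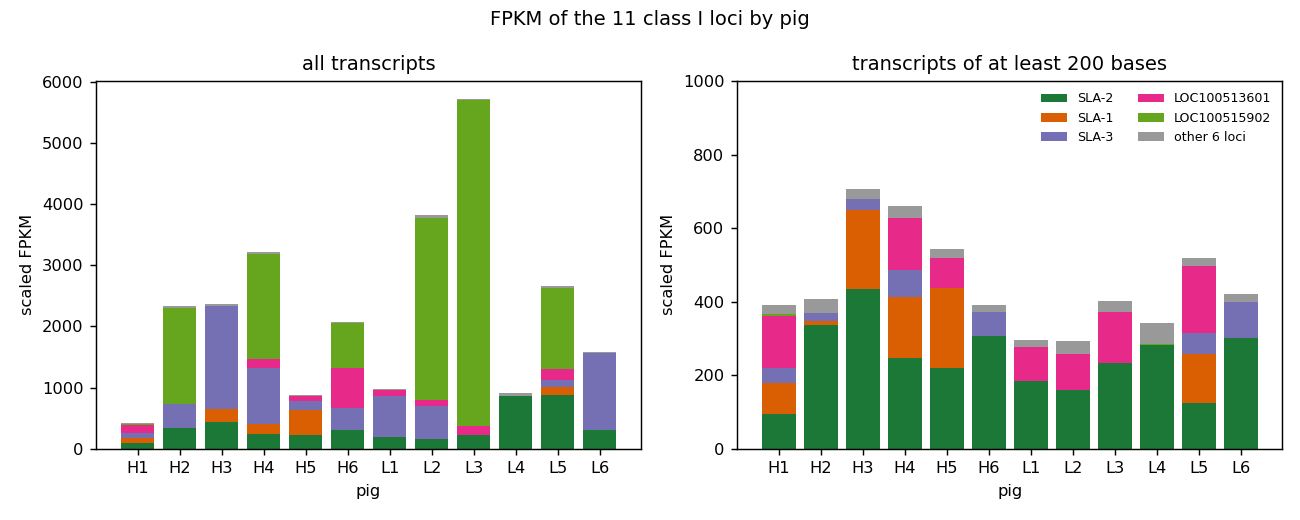
Scaled FPKM of the 11 class I loci stacked by locus in each of 12 pigs, from all transcripts (left) and from transcripts of at least 200 bases (right, a different vertical scale). On the left the bars run from 423 to 5724 FPKM and LOC100515902 fills most of the tallest ones, and on the right they run from 294 to 706 FPKM with SLA-2 in every pig.

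Of exons 2 to 5, the fourth gave the steadiest heavy chain signal. The FPKM of each transcript of at least 200 bases was weighted by the share of exon 4 that it covered. These values were added up over the 8 protein-coding loci with this exon. Reads over the exon itself were not counted. In the H pigs this sum was 246, 312, 316, 346, 350 and 444 FPKM, and in the L pigs it lay between 269 and 320 FPKM. The means were 336 ± 64.8 FPKM in H and 299 ± 21.0 FPKM in L (SD, n = 6 each; log2 ratio 0.17), with H1 the lowest and H3 the highest of all pigs. The coefficient of variation over the 12 pigs was 15.7%, against 39.2% for the same sum over exon 2 and 19.04% over exon 3. The sum over exon 5 ran from 185 to 443 FPKM. With all transcripts included, the exon 4 sum was 340 ± 63.7 FPKM in H and 299 ± 21.0 FPKM in L. The exon 3 sum then ran from 232 to 1861 FPKM, with a coefficient of variation of 77.7%, and the exon 5 sum from 185 to 3189 FPKM.

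SLA-2 and LOC100513601 together made up 95.95 to 98.2% of the exon 4 sum from transcripts of at least 200 bases, and 90.2 to 98.2% of that from all transcripts. Exon 4 of SLA-2 stood at 94.8 to 436 FPKM, with a coefficient of variation of 42.3%. Exon 4 of LOC100513601 was listed at 0 in 5 pigs (H2, H3, H6, L4 and L6) and stood at 83.9 to 183 FPKM in the other 7. The same 5 pigs held the 5 highest values of exon 4 of SLA-2, at 283 to 436 FPKM. What sets this order was not tested.

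SLA-6 and SLA-7 are annotated on the minus strand, SLA-6 first in the direction of transcription, and the assemblies of these libraries joined them. Exon 4 of SLA-6 was spliced onto exon 5 of SLA-7 in 12 of 12 pigs, over an intron of 10865 bases (chr7:23636357-23647221). The transcripts with this join stood at 1.40 to 10.02 FPKM, with 2.71, 10.02, 5.32, 5.00, 1.40 and 6.40 FPKM in H1 to H6 and 2.29, 5.77, 1.76, 2.099, 3.94 and 4.30 FPKM in L1 to L6. They carried 31.9 to 100% of the FPKM of both genes, with a median of 85.7%. SLA-6's own intron between exons 4 and 5 was found in 3 pigs, and so was that of SLA-7. The junctions are shown in the same way (30 bases each side, second exon in capitals, minus strand, Sscrofa11.1, RefSeq), as assembled or annotated after exon 4.
SLA-6 exon 4 (chr7:23647222-23647251) to SLA-7 exon 5 (chr7:23636327-23636356): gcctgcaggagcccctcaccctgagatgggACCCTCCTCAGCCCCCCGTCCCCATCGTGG
SLA-6 exon 4 to SLA-6 exon 5 (chr7:23646779-23646808): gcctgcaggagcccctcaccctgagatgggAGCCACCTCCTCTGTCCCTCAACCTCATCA
SLA-7 exon 4 (chr7:23636475-23636504) to SLA-7 exon 5: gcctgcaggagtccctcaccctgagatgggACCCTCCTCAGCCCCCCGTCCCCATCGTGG
The join of both genes differs from the junction of SLA-6 in 14 of the 30 bases after the join, and from the junction of SLA-7 in 1 base before it. Whether the join is present in the RNA or comes from mapping reads between alike loci was not tested. Exons 1 to 4 of SLA-6 and exons 5 to 7 of SLA-7 were the parts with their own introns in 11 or 12 pigs, and exon 2 of SLA-7 was in no transcript.

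Because a transcript goes whole to the gene with which it shares most bases, the values of SLA-6 and SLA-7 divide this joint signal between them. SLA-6 ran from 0 to 3.63 FPKM in H (median 2.74) and from 1.46 to 4.51 FPKM in L (median 2.59), with means of 2.31 ± 1.37 and 2.68 ± 1.204 FPKM. SLA-7 ran from 0 to 6.69 FPKM in H (median 2.88) and from 0.922 to 3.72 FPKM in L (median 1.90), with means of 3.33 ± 2.29 and 2.15 ± 1.03 FPKM (SD, n = 6 each). SLA-6 was listed at 0 in H4 and SLA-7 in H1, and the join was present in both pigs.

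SLA-8, the nonclassical gene with its own full set of introns, was even between pigs. Its level was 2.49 to 5.05 FPKM in H (median 4.11) and 3.32 to 5.83 FPKM in L (median 4.52). The means of 3.92 ± 1.11 and 4.50 ± 0.941 FPKM (SD, n = 6 each) differed by a log2 ratio of -0.20, and the groups overlapped.

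B2M, the light chain gene, is annotated as 2 copies on chromosome 1 (chr1:126837721-126844043 and chr1:126865767-126878501, minus strand). The coding sequences of 357 bases were identical over every 76-base stretch, so the copies were added up. Transcripts joined them by 2 introns of 28638 and 31330 bases in 12 of 12 pigs, and joined transcripts carried 86.01 to 100% of the FPKM of B2M. The level was 34.9 to 89.4 FPKM in H (median 56.2) and 41.4 to 63.2 FPKM in L (median 54.2). The means were 60.2 ± 21.0 and 53.3 ± 7.87 FPKM (SD, n = 6 each; log2 ratio 0.17). The 2 highest pigs (H3 and H2) and the lowest (H5) were all H pigs. B2M also served the study as an endogenous reference in qPCR. Per length, exon 4 of the heavy chains stood 4.38 to 8.94 times above B2M, with a mean of 5.81 ± 1.19 (SD, n = 12).

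The peptide transporter and tapasin were present in every pig at a few FPKM. TAP1 (ID 733649, chr7:25062772-25071989, minus strand) ran from 3.15 to 7.36 FPKM in H (median 4.77) and from 3.86 to 6.53 FPKM in L (median 4.57), with means of 4.92 ± 1.45 and 4.74 ± 0.917 FPKM. TAP2 (ID 733650, chr7:25045085-25056915, minus strand) ran from 1.96 to 4.42 FPKM in H (median 3.20) and from 1.46 to 2.72 FPKM in L (median 2.47), with means of 3.04 ± 0.880 and 2.35 ± 0.465 FPKM. TAPBP (ID 100155428, chr7:29663491-29673453, minus strand) ran from 3.20 to 7.63 FPKM in H (median 4.54) and from 2.80 to 6.26 FPKM in L (median 3.72), with means of 4.83 ± 1.48 and 4.09 ± 1.25 FPKM (SD, n = 6 each). The log2 ratios of H to L were 0.05, 0.37 and 0.24, and the groups overlapped for all 3 genes. The annotated chain of introns was assembled in all 12 pigs for TAP1 and TAP2 and in 6 for TAPBP. H3 was the highest pig for B2M, TAP1, TAP2 and TAPBP, and also for the exon 4 sum.

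In order of mean level per length over the 12 pigs, SLA-3 (514 FPKM), SLA-2 (354 FPKM) and SLA-1 (85.0 FPKM) stood above B2M (56.8 FPKM). Without transcripts under 200 bases the order of these was SLA-2 (244 FPKM), SLA-1 (68.4 FPKM), B2M (56.7 FPKM) and SLA-3 (31.99 FPKM). TAP1 (4.83 FPKM), TAPBP (4.46 FPKM), SLA-8 (4.21 FPKM), SLA-7 (2.74 FPKM), TAP2 (2.70 FPKM) and SLA-6 (2.49 FPKM) followed. With all transcripts, neighbours in this order differed by less than the larger of their SDs between pigs, except for the steps from SLA-2 to SLA-1 and from B2M to TAP1. B2M was above 94.1% of the tested genes, TAP1 above 55.3% and TAP2 above 39.8%.

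In the fit of all genes with limma, a linear model with moderated errors, 1 of 12416 genes (0.00805%) differed between the H and L pigs at an adjusted p of at most 0.1, and it was not among the 10. By limma's unadjusted p under 0.05, 906 genes (7.3%) were called. The groups did not overlap in 69 genes (0.556%) and in 0 of the 10. The list was proposed from this contrast, so no test of its members is given and nothing is read from these counts.

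B2M and TAP2 varied together from pig to pig, in a comparison that does not use the groups. On log2 values over the 12 pigs, B2M and TAP2 had a Pearson r of 0.823 (permutation p = 0.0013, adjusted p = 0.013 over 10 pairs) and a Spearman rho of 0.860 (permutation p = 0.0006, adjusted p = 0.006). Without H3 and H5, the pigs farthest from the median of B2M, r was 0.789, and it was 0.871 within the 6 H and 0.886 within the 6 L pigs. TAP1 and TAP2, which code for the 2 chains of the transporter, had an r of 0.733 (permutation p = 0.00799, adjusted p = 0.040) and a rho of 0.706 (permutation p = 0.0135, adjusted p = 0.0673). Without H1 and H3 that r was 0.496, so the relation rested partly on these pigs. For B2M, r was 0.551 with TAP1 (0.325 without H3 and H5) and 0.528 with TAPBP (0.475 without H3 and H5). For TAPBP, r was 0.491 with TAP1 (0.2645 without H1 and H3) and 0.586 with TAP2 (-0.106 without H3 and L2). The adjusted permutation p-values of these pairs were 0.0905 to 0.115. The sum over the 11 class I loci, from transcripts of at least 200 bases, had an r of 0.303 with B2M and 0.670 with TAP2, and without H3 and H4 these were near 0 (-0.0035) and 0.389. With TAP1 and TAPBP this sum had an r of 0.538 and 0.593, and of 0.133 and 0.377 without H3 and H4.

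**Figure D5:**
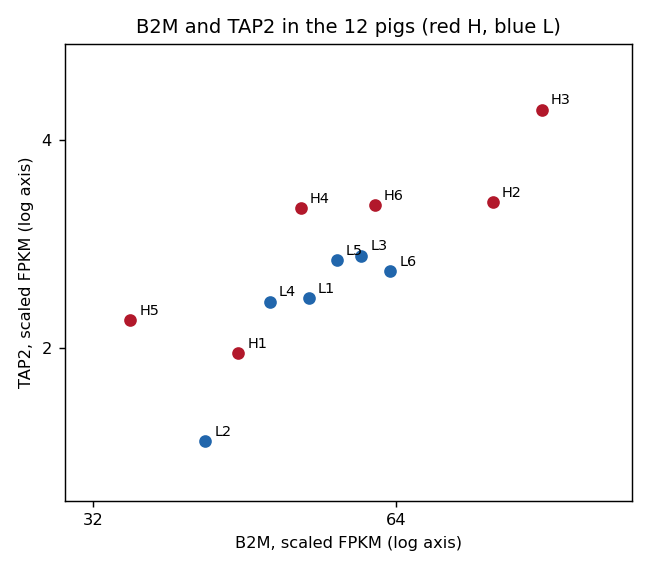
TAP2 against B2M in the 12 pigs (scaled FPKM, log axes, H pigs in red and L pigs in blue). TAP2 was higher in pigs with more B2M within each group, from L2 and H5 at the low end to H3 at 89.4 FPKM of B2M and 4.42 FPKM of TAP2.

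The genes whose levels followed the members most closely were listed as a description, by r over the same 12 pigs. For B2M they were PLEK (0.827), the class II gene SLA-DRA (0.825), TAP2 (0.823), LOC100623720 (0.813) and LOC102159394 (0.812). B2M thus had TAP2 among its 5 closest genes of the whole table. For TAP1 they were LOC100520491 (0.875), the chemokine CCL5 (0.870), the leukocyte surface gene CD84 (0.863), HNRNPDL (0.848) and GNAQ (0.835). For SLA-1, at 0 in 6 pigs, they were MSH6 (0.959), CLMP (0.934), TTC36 (0.932), MGST1 (0.931) and SGK2 (0.916). Within the list, the r of SLA-1 ran from -0.33 with SLA-6 to 0.33 with TAPBP, with 0.29 for TAP2, 0.30 for SLA-3, 0.045 for TAP1, 0.026 for SLA-2 and -0.034 for B2M.

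Class I promoters are known for an enhancer with an NF-kappaB site, an interferon-stimulated element and a cAMP-response-like element. The 250 bases before each start codon were searched on both strands for their letters. GGGGA and TCCCC parted by 1 base, an NF-kappaB-like motif that reads the same on both strands, was found in SLA-1, SLA-2, SLA-3, LOC100513601 and LOC100515902, and in 17 of 19557 protein-coding genes with such a window (0.0869%). It began 211 bases before the start codon in 4 of these genes and 202 bases before it in SLA-2. GAA and GAAA parted by 2 bases, the shorter interferon-type motif, followed on the reverse strand at 190 bases, and at 181 in SLA-2 (7.14% of all windows). TGACG stood at 138 bases in the 4 genes (18.4% of all windows) and had no match in the window of SLA-2. The stretch is shown for the 3 loci where it lies outside annotated untranslated exons (86 bases, plus strand, Sscrofa11.1, RefSeq), with the matches in capitals.
SLA-3, chr7:22938104-22938189: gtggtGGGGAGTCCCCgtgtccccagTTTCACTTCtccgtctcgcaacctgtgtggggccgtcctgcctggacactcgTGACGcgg
SLA-2, chr7:22955960-22956045: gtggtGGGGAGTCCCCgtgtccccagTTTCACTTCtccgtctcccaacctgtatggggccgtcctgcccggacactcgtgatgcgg
LOC100515902, chr7:22867862-22867947: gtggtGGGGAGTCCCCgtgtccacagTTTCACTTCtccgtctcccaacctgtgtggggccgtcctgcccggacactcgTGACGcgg
Against the same stretch of SLA-1, SLA-3 differed in 2 bases, SLA-2 in 4 and LOC100515902 in 3. These loci had nearly the same letters before their start codons, and their FPKM are given above.

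SLA-6, SLA-7 and SLA-8 had no NF-kappaB-like match in the window. SLA-6 had the shorter interferon-type motif on the reverse strand, at 162 bases. The longer interferon-type motif, GAAA and GAAA parted by 2 bases (3.28% of all windows) stood before SLA-7 at 136 bases on the reverse strand. It also stood before both copies of B2M, at 174 and 168 bases in overlapping matches, before TAP1 at 217 and 211 bases on the reverse strand, and before TAPBP at 57 and 51 bases. TAP2 had none of these motifs in its window. The windows were set by the start codon and not by the transcript start. Those of SLA-1, SLA-2, LOC100513601, SLA-7, TAP2, TAPBP and the B2M copy at chr1:126865767-126878501 lay wholly inside the annotated gene. A missing match there does not tell whether the promoter holds the motif, and a match there need not lie in the promoter. A match of letters is a description of the reference and not a binding site.

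Of the other genes of the pathway, 79 were listed and 68 were tested, and 0 of them differed between H and L pigs at an adjusted p of at most 0.1 (limma), beside 1 of 12416 over all genes. At an unadjusted p under 0.05, 1 of the 68 differed, beside 906 over all genes. That gene was ISG15, an interferon-induced ubiquitin-like modifier, at 1.26 ± 0.381 FPKM in H and 2.79 ± 1.70 FPKM in L (log2 difference -0.77, SE 0.31, limma adjusted p = 0.651).

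Genes that supply peptides, the immunoproteasome, its activator and trimming peptidases, were tested for 9 of 9, of which 6 had a higher mean log2 in H, with a median difference of 0.0049. Over all tested genes, 6279 of 12416 had a higher mean log2 in H. PSME2, a subunit of the proteasome activator, stood at 12.4 ± 3.15 FPKM in H and 9.94 ± 2.74 FPKM in L. PSME1, its partner subunit, stood at 9.74 ± 6.63 and 12.3 ± 4.05 FPKM, the immunoproteasome subunit PSMB9 at 2.14 ± 1.48 and 1.53 ± 0.768 FPKM, and PSME3 at 10.6 ± 2.58 and 9.33 ± 1.90 FPKM. Adjusted p-values of these genes (limma) were 0.768 to 0.847. Genes that fold and load the heavy chain were lower in H for 6 of 6 tested, with a median log2 difference of -0.22, against 0.0032 over all genes, and 0 passed either threshold. The chaperone calnexin, CANX, stood at 20.4 ± 1.98 FPKM in H and 25.4 ± 5.23 FPKM in L, and calreticulin, CALR, at 34.3 ± 6.81 and 41.9 ± 13.0 FPKM. HSPA5, the main Hsp70 of the endoplasmic reticulum, stood at 35.5 ± 7.37 and 60.4 ± 41.9 FPKM, and PDIA3, the disulfide isomerase that pairs with tapasin, at 25.1 ± 3.03 and 28.5 ± 6.995 FPKM.

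The regulators of class I transcription were tested for 12 of 12, with 8 higher in H (6279 of 12416 over all tested genes) and a median log2 difference of 0.07. NLRC5, the class I transactivator, stood at 2.90 ± 1.05 FPKM in H and 2.26 ± 0.771 FPKM in L. RELA, an NF-kappaB subunit, stood at 10.4 ± 0.513 and 12.5 ± 2.76 FPKM, and RFXAP, of the RFX complex, at 5.45 ± 1.30 and 4.85 ± 0.918 FPKM. Their adjusted p-values (limma) were 0.747 to 0.859.

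Of the other partners of B2M, the Fc receptor FCGRT and the iron regulator HFE were tested and MR1 and CD1D were not. FCGRT ran from 0 to 52.3 FPKM over the pigs and HFE from 0.488 to 0.836 FPKM. Of the genes with which lymphocytes recognise class I, CD3E (1.08 ± 0.737 FPKM in H, 0.822 ± 0.165 FPKM in L) and KLRK1 (0.641 ± 0.612 and 0.744 ± 0.378 FPKM) were tested, while CD8A and CD8B were too low to be. Class II genes, which present peptides to helper T cells, were tested for 9 of 10, with 4 higher in H (6279 of 12416 over all tested genes). SLA-DRB1 ran from 11.7 to 1049 FPKM and stood at 56.0 ± 55.9 FPKM in H and 344 ± 394 FPKM in L (log2 difference -1.94, adjusted p = 0.694). SLA-DOA, SLA-DQA1 and the invariant chain CD74 differed by log2 values of -0.10, 0.11 and -0.09. Interferon response genes were tested for 30 of 34, with 22 higher in H, beside the same 6279 of 12416, and a median log2 difference of 0.16. Beside ISG15, IFI44 stood at 2.03 ± 1.08 FPKM in H and 1.21 ± 0.301 FPKM in L, the chemokine CXCL10 at 1.14 ± 1.35 and 1.92 ± 1.31 FPKM, and the RNA sensor EIF2AK2 at 2.20 ± 0.964 and 1.49 ± 0.830 FPKM, with adjusted p-values (limma) of 0.680 to 0.755.

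Markers of the tissue and of other cells were checked in the same values. The fast fibre genes MYLPF (9644 ± 2360 FPKM in H, 9112 ± 2118 FPKM in L) and TNNT3 (7087 ± 2021 and 6290 ± 1887 FPKM) defined the tissue, while ACTA1 and MB were not among the tested genes. The summed level of 5 tested fibre markers ran from 24680 to 38150 FPKM in H and from 24720 to 30840 FPKM in L. Adipocyte markers, led by FABP4 and ADIPOQ, summed to 27.4 to 130 FPKM in H and 14.1 to 73.9 FPKM in L. T and NK lymphocyte markers (5 of 10 tested, led by CD4 and PTPRC) summed to 4.55 to 6.43 and 3.62 to 7.78 FPKM, and macrophage markers (6 of 7, led by CSF1R and TYROBP) to 13.8 to 21.8 and 8.90 to 26.3 FPKM. Of the B lymphocyte markers 0 of 4 were tested. Endothelial markers (PECAM1, VWF and 4 others) summed to 54.0 to 124 and 37.5 to 99.1 FPKM, and fibroblast markers (DCN, COL3A1 and 3 others) to 132 to 489 and 158 to 525 FPKM. The erythroid markers HBB and ALAS2 stood at 214 ± 74.0 and 1.44 ± 0.877 FPKM in H, and at 108 ± 40.2 and 0.799 ± 0.306 FPKM in L, with an adjusted p of 0.586 for HBB (limma). The 3 tested of 4 erythroid markers summed to 85.45 to 299 FPKM in H and 73.0 to 161 FPKM in L. The tested markers were higher in H for 5 of 5 adipocyte, 6 of 6 endothelial, 5 of 5 fibroblast and 3 of 3 erythroid genes. For fibre, T and NK lymphocyte and macrophage markers this held for 4 of 5, 4 of 5 and 4 of 6. Over all tested genes it held for 6279 of 12416. At limma's unadjusted p under 0.05, 1 adipocyte (CIDEC), 2 endothelial (KDR and TEK) and 2 erythroid genes (HBB and AHSP) were called, and 0 at the adjusted threshold. Over all 12416 tested genes, 906 (7.3%) passed the unadjusted and 1 the adjusted threshold. The summed ranges overlapped between the groups for every list, and their part in the levels of the class I genes was not tested.

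In all libraries together, the files listed 30535 to 44609 transcripts per pig with a coverage of 9.88 to 17.6 gigabases. Of these, 163 to 286 transcripts per pig were shorter than 200 bases and carried 98.6 to 99.5% of the FPKM, so the values of short transcripts are the least certain ones here.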

How the data were processed

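Each of the 12 pigs gave 1 paired-end library of muscle RNA. Per the labels and the study's methods, reads were checked with FastQC, trimmed with Trim Galore, mapped to Sscrofa11.1 by TopHat2 2.1.0 with Ensembl gene models, and assembled library by library with Cufflinks 2.2.1. The deposited files give each transcript's exons, its FPKM and its coverage, which the authors' Cufflinks run scaled to that library alone. A Cufflinks score stands in the deposited files and was not used. Transcripts missing from a file were set to 0.

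The RefSeq annotation of Sscrofa11.1 was used, and 98.3% of the introns in the files had standard splice site bases on this sequence. A transcript went whole to the gene on its strand with which it shared most exonic bases, and a transcript without strand to a gene that covered at least 50% of it. FPKM were added up per gene, the 2 annotated copies of B2M together, and scaled by median ratios (factors 0.891 to 1.13). Assigned transcripts carried 41.5 to 56.1% of the coverage.

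Genes averaging 0.5 FPKM or more in either group were compared on log2(FPKM + 0.5) with limma 3.58.1 (variance trend, two-sided, Benjamini-Hochberg adjustment, threshold 0.1) in R 4.3.3. A difference of mean log2 values understates the change of low genes, and for a gene at 0 in some pigs it depends on the pseudocount. The fit was also run on simulated data with a log-normal spread, a setting that does not cover loci listed at 0 in many pigs. Correlations used 100000 permutations, two-sided. Sequences, exons and transcripts were compared in Python 3.11.15 with numpy 2.4.6, pandas 2.3.3 and scipy 1.17.1. Depth per value is known only as FPKM and coverage, so no counting interval was given.

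The members and lists were chosen with earlier results of these data known. Named were the 10 genes, the other class I loci, the 4 tested genes with the smallest p of each pathway list, the 5 genes most alike to SLA-1, B2M and TAP1, and the 2 most abundant tested genes of each marker list. A result for 1 gene under this rule is not reported here. CIDEC, KDR, TEK, AHSP, CD8A, CD8B, MR1, CD1D, ACTA1 and MB fall outside this rule and were named after their values were seen. Alternatives were other pseudocounts (0.1 and 1), filters, scalings, transcript choices, assignments and model settings, a block for the pigs' number, and leaving out single pigs.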

Additional observations from a re-analysis of the deposited data

Results flagged for a closer look

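Within a group of 6 pigs, a value was singled out when its gap to the nearest other pig, divided by the range of the group, was above Dixon's critical ratio for 6 values. Of 32 groups looked at, 6 held such a pig. Chance gives about 1 in 20 groups only for independent and normally distributed values. These FPKM hold many zeros, and some groups are sums of the same loci, so the count is not read against that rate. For SLA-1 in L5 and SLA-4 in L6 the ratio was 1 because all other values were 0. SLA-1 in L5 stood at 133 FPKM while the other 5 L pigs were listed at 0. The pseudogene SLA-4 in L6 stood at 3.19 FPKM while the other L pigs were listed at 0. LOC100513601 in H6 stood at 655 FPKM against 0 to 144 FPKM in the other H pigs, all of it in a transcript under 200 bases. TAP1 in L3 stood at 6.53 FPKM against 3.86 to 4.58 FPKM in the other L pigs. TAP2 in L2 stood at 1.46 FPKM against 2.33 to 2.72 FPKM in the other L pigs. TAPBP in H3 stood at 7.63 FPKM against 3.20 to 4.71 FPKM in the other H pigs.

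Beside SLA-2, and in no annotated gene, 11 of the 12 libraries listed a transcript of 47 to 59 bases, shorter than the reads of 76 bases. It began at position 22961728 to 22961737 of chromosome 7 and ended at 22961783 to 22961786. Its deposited FPKM ran from 2970170 to 37077400 (median 18181100), with a median of 18745750 in the H and 17756700 in the L libraries that had it. The library of L4 had in its place a transcript of 338 bases at 205 FPKM. It entered the level of no gene, but it counts in the share of short transcripts and in the total coverage.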

How the results depend on the processing

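The genes called between H and L pigs numbered 1, and 0 when genes needed a mean of 1 FPKM, 2 without a variance trend, 2 with array weights and 1 to 3 with each pig left out in turn. Without H2, L3 or L4 the number was 3. Same-numbered pigs did not deviate together (correlations of -0.0755 to 0.0568), so the numbers do not pair them, and with the replicate block 0 genes were called. Of the pathway lists, 0 genes were called in all settings run, and the smallest adjusted p was 0.495. The cause of these changes was not tested.

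The difference of mean log2 values of SLA-1 was 5.10, and 4.45 to 6.45 with each pig left out. Over all its alternatives it ran from 3.60 to 6.64. SLA-1 was listed at 0 in 6 pigs, so this difference depends on the pseudocount and lies above the log2 ratio of means, 2.74. The gene was chosen by this contrast, so these ranges are no test of it. Summed over all 11 loci the difference of mean log2 values was -0.43, and 0.43 when transcripts under 200 bases were also left out. The latter alternative was chosen after seeing the data. Of 236 values of the 10 members under alternatives, 11 changed sign and 4 moved by more than the SD within groups, and of 115 of the other loci and the sum 27 and 1 did. SLA-2 went from -0.46 to 1.77 with annotated chains of introns alone and to -3.19 without transcripts on several class I genes. SLA-8 went from -0.20 to -1.26, TAPBP from 0.21 to 1.27 and the sum of the loci from -0.43 to 1.11 with annotated chains alone. Annotated chains gave no value for SLA-1, SLA-3, SLA-6 and SLA-7, which had none. B2M ran from -0.015 to 0.25 and TAP1 from -0.093 to 0.13 with each pig left out, so 1 pig decides their direction. Without H4 and L3 the difference for SLA-1 was 4.45.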
